A study of Gallus gallus with 12 samples.

Results

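The 7 genes described here, SYCP3, HORMAD1, TEX12, SMC1B, MEI1, STRA8 and YTHDC2, are known for their work in meiosis and were measured in chicken primordial germ cells (PGC) of embryonic day 6.5, before meiosis begins. Every probe set annotated to 1 of these symbols was taken, which gave 15 of the 37693 probe sets tested and 7 of the 13008 genes represented. SYCP3, TEX12 and SMC1B had 1 probe set each, HORMAD1, MEI1 and STRA8 had 2 each, and YTHDC2 had 6. The genes were selected on their measured levels in PGC relative to the other groups, so their differences between PGC and the other groups are given as a description, without a test.

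Total RNA was measured in 12 samples of White Leghorn chickens, 1 array per sample and 3 samples per group. PGC and gonadal stromal cells (GSC, the somatic cells of the gonad) were separated by magnetic sorting from the gonads of mixed-sex embryos of day 6.5 (stage 30), with 100 embryos pooled per sample and about 270000 PGC or 9000000 GSC. Chicken embryonic fibroblasts (CEF) came from 5 embryos of the same age per sample, 6000000 cells grown to passage 2; the design text names the embryonic body as their source and the sample labels a muscular area. Blastoderm cells came from 5 freshly laid eggs of stage X per sample, 530000 cells, and each group gave about 5 µg of RNA per sample for labelling. The labels call the replicates biological and independent, and the antibody used for sorting was not given in the sources used here.

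Meiosis reduces the chromosome set through pairing, crossing over and 2 divisions. Homologous chromosomes are organised on a protein axis of cohesin, SYCP and HORMA-domain proteins, programmed DNA breaks are made and repaired along it, and the synaptonemal complex joins the paired axes. In the chicken, germ cells of the left ovary enter meiosis late in incubation and those of the testis after hatching, while PGC of the early gonad still divide by mitosis. In mice, entry is tied to retinoic acid and to STRA8, and RNA-binding proteins such as YTHDC2 and its partner MEIOC then clear mitotic transcripts.

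Levels are the deposited log2 values, and a level of up to 3.61, which 99 percent of the array's 746 probe sets against viruses and reporters did not exceed, counts as background. Set against this level, SYCP3, HORMAD1, MEI1, STRA8 and YTHDC2, 5 of the 7 genes, had a PGC mean above background, as did 49.9% of all probe sets; these values chose the genes and are a description only. The PGC means of TEX12 and SMC1B lay within background, so for them the label of genes present before meiosis did not hold on the group mean, and each exceeded background on 1 PGC array. HORMAD1, MEI1 and YTHDC2 exceeded it on all 3 PGC arrays. SYCP3, HORMAD1 and STRA8 were above background in PGC alone among the 4 groups, a pattern held by 1.44% of all probe sets. Probe sets differ in how brightly they hybridise, so the level of a gene is compared between samples only. In these bulk samples fewer expressing cells and less RNA per cell cannot be told apart.

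**Figure D1:**
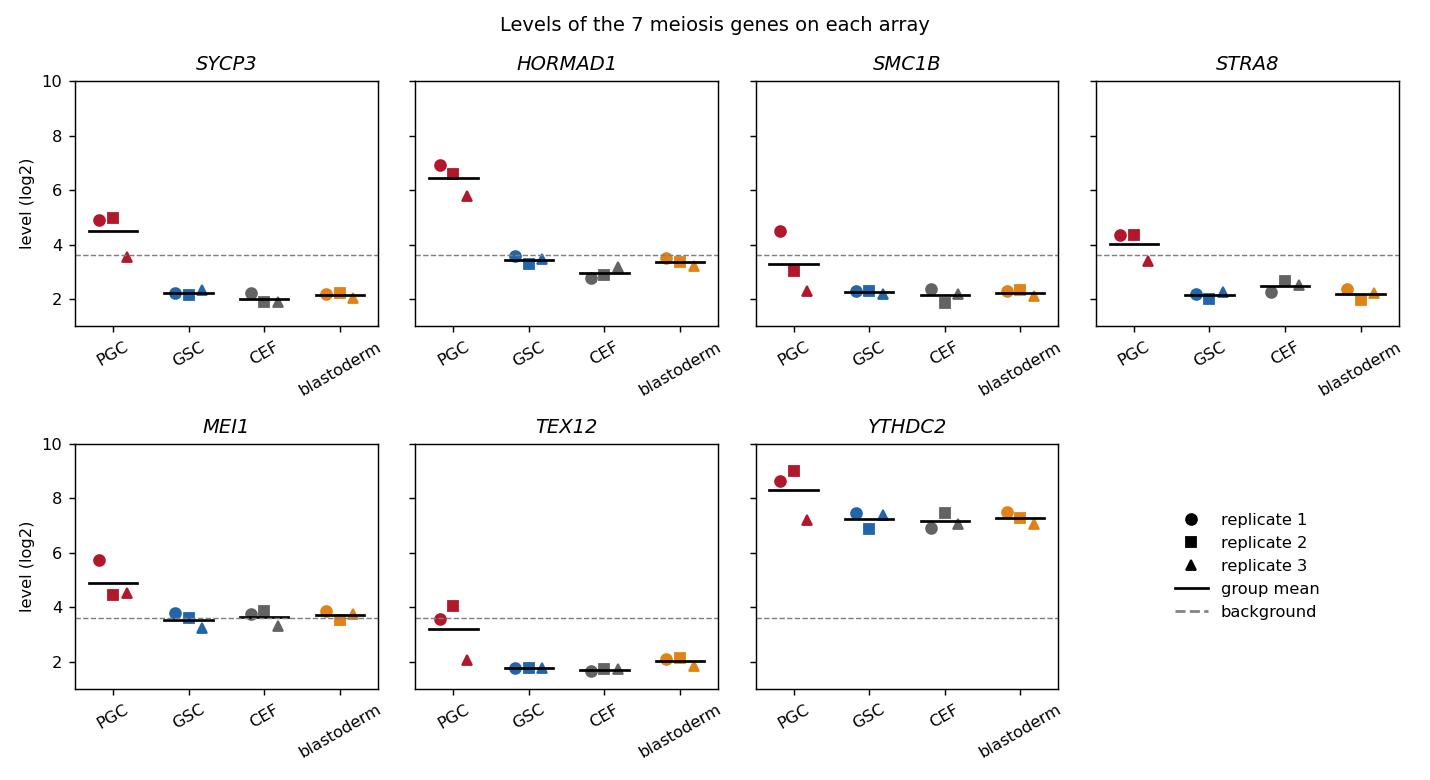
Each panel shows the log2 level of 1 gene on the 12 arrays, with symbols for replicates, bars for group means and a dashed line at the background of 3.61. In SYCP3, HORMAD1, STRA8 and MEI1 all 3 PGC arrays lie above the 9 other arrays, and in 6 of the 7 genes PGC replicate 3 is the lowest PGC array.

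Of the genes of the chromosome axis and the synaptonemal complex, SYCP3, which forms the lateral elements, had levels of 4.91, 4.99 and 3.55 in PGC, against 2.22, 2.16 and 2.32 in GSC, 2.24, 1.90 and 1.88 in CEF and 2.20, 2.24 and 2.02 in blastoderm. All PGC arrays lay above all other arrays, and PGC replicate 3 lay just within background. The PGC mean was 4.48 ± 0.81 (SD, n = 3), and it exceeded the means of GSC, CEF and blastoderm by 2.25, 2.48 and 2.33 on the log2 scale. These are folds of 4.75, 5.57 and 5.03, and since the 3 lower means lie within background, each fold depends on where the array's floor lies.

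HORMAD1, a HORMA-domain protein of the unsynapsed axis, had the highest differences of the set. Its representative probe set read 6.90, 6.59 and 5.79 in PGC, against 3.58, 3.30 and 3.48 in GSC, 2.78, 2.88 and 3.16 in CEF and 3.52, 3.35 and 3.22 in blastoderm. Every PGC array was above background and every other array within it. The means were 6.43 ± 0.58 for PGC, 3.45 ± 0.14 for GSC, 2.94 ± 0.20 for CEF and 3.36 ± 0.15 for blastoderm (SD, n = 3 each), so PGC stood 7.87-fold above GSC, 11.2-fold above CEF and 8.38-fold above blastoderm. The 3 lower means lie within background, so these folds depend on the array's floor. The second probe set read 7.65, 7.17 and 6.14 in PGC, with no array of another group over 3.52. It gave larger PGC differences of 3.63 against GSC, 4.54 against CEF and 4.91 against blastoderm, so the probe sets had the same direction and differed in size.

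TEX12, a central element protein that helps to hold synapsed axes together, read 3.56, 4.05 and 2.06 in PGC, against 1.78, 1.78 and 1.76 in GSC, 1.67, 1.72 and 1.73 in CEF and 2.10, 2.13 and 1.84 in blastoderm. PGC replicates 1 and 2 stood apart from the rest, while PGC replicate 3 lay among the blastoderm arrays. The PGC mean of 3.22 ± 1.04 exceeded the other means by 1.45 (GSC), 1.51 (CEF) and 1.20 (blastoderm) on the log2 scale, with all 4 means within background. Without PGC replicate 3 the difference from GSC was 2.03.

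SMC1B, a cohesin subunit of meiotic cells, was the least settled member. It read 4.51, 3.04 and 2.29 in PGC, against 2.29, 2.28 and 2.18 in GSC, 2.38, 1.87 and 2.18 in CEF and 2.29, 2.32 and 2.10 in blastoderm. PGC replicate 1 alone was above background, and PGC replicate 3 was level with the highest GSC array and within the range of CEF and blastoderm. The PGC mean of 3.28 ± 1.13 exceeded that of GSC by 1.03 on the log2 scale, but by 0.42 without PGC replicate 1 and by 1.53 without PGC replicate 3. Of the 7 genes, SMC1B was the only gene for which leaving out 1 array changed a fold by more than 1.5 times.

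MEI1, which mice need to form meiotic DNA breaks, had a PGC mean above background and means close to background elsewhere. Its representative probe set read 5.74, 4.46 and 4.52 in PGC, against 3.80, 3.60 and 3.25 in GSC, 3.74, 3.86 and 3.31 in CEF and 3.86, 3.55 and 3.77 in blastoderm. All 3 PGC arrays were above all others, and PGC replicate 1 was the highest. PGC stood 2.56-fold above GSC, 2.41-fold above CEF and 2.26-fold above blastoderm. The second probe set stayed within background on every array, at 3.14, 2.67 and 2.76 in PGC, and its PGC differences were 0.70 against GSC, 0.70 against CEF and 0.81 against blastoderm.

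STRA8, the retinoic acid-induced regulator of meiotic entry in mice, read 4.36, 4.34 and 3.41 in PGC on its representative probe set, against 2.19, 2.01 and 2.28 in GSC, 2.26, 2.65 and 2.50 in CEF and 2.36, 1.98 and 2.22 in blastoderm. PGC replicates 1 and 2 were above background and PGC replicate 3 was within it, still above all 9 other arrays. The PGC mean of 4.03 ± 0.54 exceeded those of GSC, CEF and blastoderm by 1.88, 1.56 and 1.85, or 3.67-fold, 2.95-fold and 3.60-fold, with the 3 lower means within background and the folds again dependent on the floor. The second probe set was within background on all 12 arrays, with 2.44, 2.64 and 1.92 in PGC. Its PGC differences were 0.73 against GSC, 0.44 against CEF and 0.60 against blastoderm, and its PGC and CEF arrays overlapped.

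YTHDC2, an RNA helicase that binds methylated adenosine and is needed for meiotic progress in mice, differed from the others in being above background in all 4 groups. Its representative probe set read 8.63, 9.01 and 7.22 in PGC, against 7.45, 6.86 and 7.38 in GSC, 6.90, 7.47 and 7.07 in CEF and 7.51, 7.29 and 7.07 in blastoderm. PGC replicates 1 and 2 were above every other array, and PGC replicate 3 lay inside the range of each other group. The PGC mean of 8.28 ± 0.94 was 2.08-fold that of GSC, 2.20-fold that of CEF and 2.00-fold that of blastoderm, and without PGC replicate 3 the log2 differences were 1.59, 1.67 and 1.53.

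The other YTHDC2 probe sets did not all follow. The brightest of them read 7.69, 7.75 and 6.57 in PGC, with differences of 0.89 from GSC, 1.49 from CEF and 1.00 from blastoderm. The next read 4.31, 5.10 and 3.09 in PGC, with differences of 0.59 from GSC, 1.86 from CEF and 0.98 from blastoderm. A further probe set, read at 2.64, 3.62 and 2.82 in PGC, differed by 0.11 from GSC, 0.61 from CEF and 0.15 from blastoderm. The remaining pair was within background everywhere, and its PGC differences from GSC were 0.00 and -0.06. The transcript regions that these probe sets read were not analysed here.

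**Figure D2:**
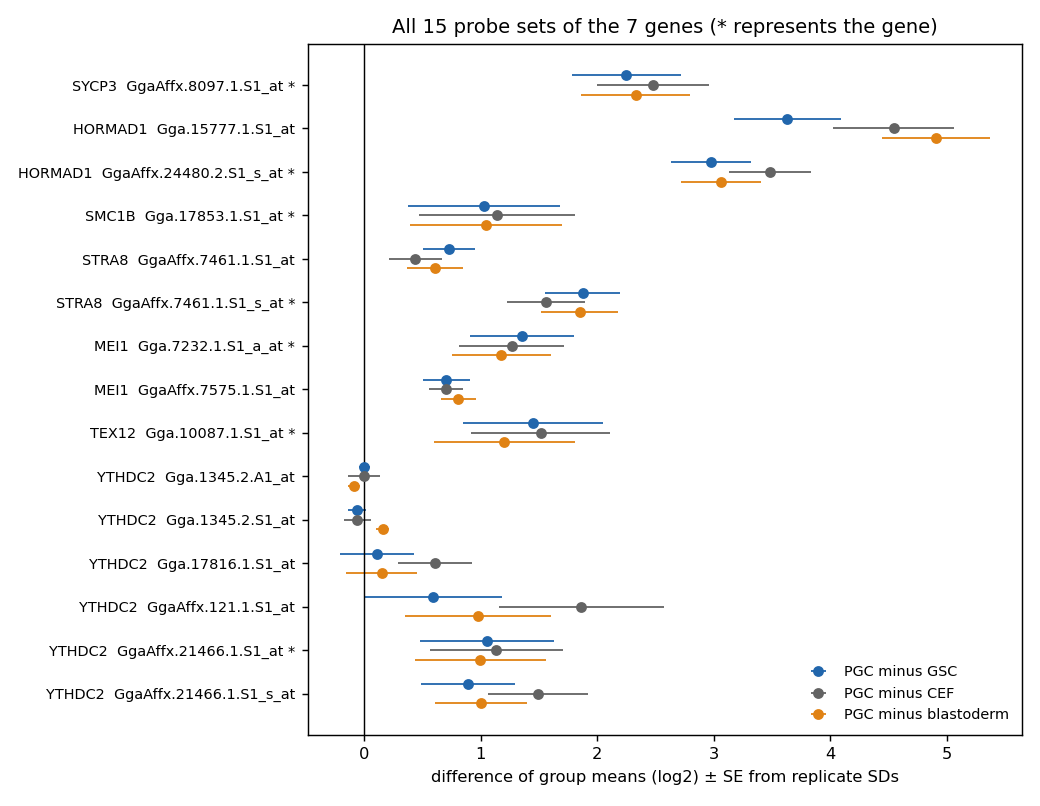
Differences of group means (log2, horizontal axis) of all 15 probe sets for PGC minus GSC, PGC minus CEF and PGC minus blastoderm; bars are standard errors from the replicate SDs and stars mark the probe set that represents each gene. HORMAD1 lies farthest to the right on both probe sets, and a pair of YTHDC2 probe sets lies at about 0.

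Across the 7 genes the PGC arrays did not overlap with GSC and were higher in 6, did not overlap with CEF in 5 and did not overlap with blastoderm in 4. Among all probe sets the shares of such separation were 14.9%, 21.6% and 21.2%; because these contrasts chose the genes, nothing is read from the counts. The 6 include SMC1B, whose lowest PGC array and highest GSC array were both at 2.29. The median difference of the 7 genes was 1.45 from GSC, 1.51 from CEF and 1.20 from blastoderm, where the medians of all probe sets were -0.05, -0.07 and -0.10. SYCP3, HORMAD1, STRA8 and MEI1 exceeded all 9 other arrays on each PGC array, which 5.61% of all probe sets did.

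Likeness between genes was taken after each gene was centred on its mean and without scaling, so that it covers the size of a pattern as well as its shape. By this measure the root mean square difference over the 12 arrays was smallest between TEX12 and YTHDC2, at 0.24 log2 units, and largest between HORMAD1 and SMC1B, at 0.97. By the same measure, over 6981 genes whose group means spanned at least 1 log2 unit, ADAM22 (0.18), EFCAB11 (0.21) and RSPH10B (0.27) were nearest to SYCP3. ARPP21 (0.27), PHYHIPL (0.30) and MRAP2 (0.30) were nearest to HORMAD1. MDH1B (0.20), LOC101752215 (0.21) and DRC1 (0.22) were nearest to SMC1B, and DNAI1 (0.22), GUCY1B4 (0.24) and TVP23A (0.24) to STRA8. PDCL2 (0.23), LMLN (0.24) and MAPKAPK3 (0.25) were nearest to MEI1, and TANGO2 (0.17), LZTFL1 (0.24) and AK9 (0.24) to TEX12. For YTHDC2 they were FSBP (0.22), TEX12 (0.24) and TANGO2 (0.25). These distances describe the same 12 arrays that all the genes share.

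PGC replicate 3 was the lowest PGC array in 6 of the 7 genes and in 12 of the 15 probe sets, against 35.3% of all probe sets. Relative to the mean of PGC replicates 1 and 2 it was lower by log2 differences of -1.74 in TEX12, -1.60 in YTHDC2, -1.49 in SMC1B, -1.40 in SYCP3, -0.96 in HORMAD1, -0.94 in STRA8 and -0.58 in MEI1. The median of all probe sets was 0.03. In the same array 8 of 9 germ cell markers were lower, with a median of -0.71. By this measure 17619 of all 37693 probe sets were lower. DDX4, the germ cell RNA helicase, read 10.40, 10.48 and 9.30 in PGC, and DAZL, a germ cell RNA-binding protein, read 11.06, 11.22 and 10.14.

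Markers of somatic gonad cells moved the other way in that array. All 10 measured of 11 listed were higher in PGC replicate 3, with a median of 1.53, among them NR5A1 (1.48), LHX9 (1.37) and AMH (0.94). Their summed linear level ran from 2014 to 5684 in PGC, with the highest sum in replicate 3, against 5934 to 7460 in GSC. All 11 fibroblast markers, with a median of 0.89, and all 4 measured of 8 listed erythroid markers were higher in PGC replicate 3 as well. Endothelial markers had a median of 0.69, and 1 of 6 was lower. COL1A1, a collagen of fibroblasts, read 8.74, 8.79 and 10.29 in PGC, and HBAD, a globin of red cells, read 12.36, 12.56 and 12.70. The summed erythroid markers ran from 7630 to 10184 in PGC, against 10498 to 14024 in GSC. The summed germ cell markers ran from 5663 to 8745 in PGC, against 1929 to 2086 in GSC, 94.7 to 129 in CEF and 1588 to 2410 in blastoderm. Single genes make up much of these sums: DMRT1 averaged 10.67 in PGC and 10.71 in GSC, and SOX3 averaged 9.94 in PGC and 10.73 in blastoderm. Mesonephros markers (5 of 6 measured) summed to 693 to 1403 in PGC, against 233 to 261 in GSC. LRP2 averaged 7.55 in PGC and 3.95 in GSC, SLC3A1 7.99 in PGC and 3.99 in GSC, and CUBN 8.85 in PGC and 5.48 in GSC, while PAX2 averaged 5.68 in PGC and 5.72 in GSC and UMOD 5.41 in PGC and 6.89 in GSC. The part of the mesonephros markers in the PGC differences was not tested. The part of the shift in PGC replicate 3 in the levels of the 7 genes was not tested. The difference between 3′ and 5′ actin and GAPDH control probe sets was 0.35, 0.28 and 0.07 in PGC replicates 1, 2 and 3, and its part was not tested either.

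**Figure D3:**
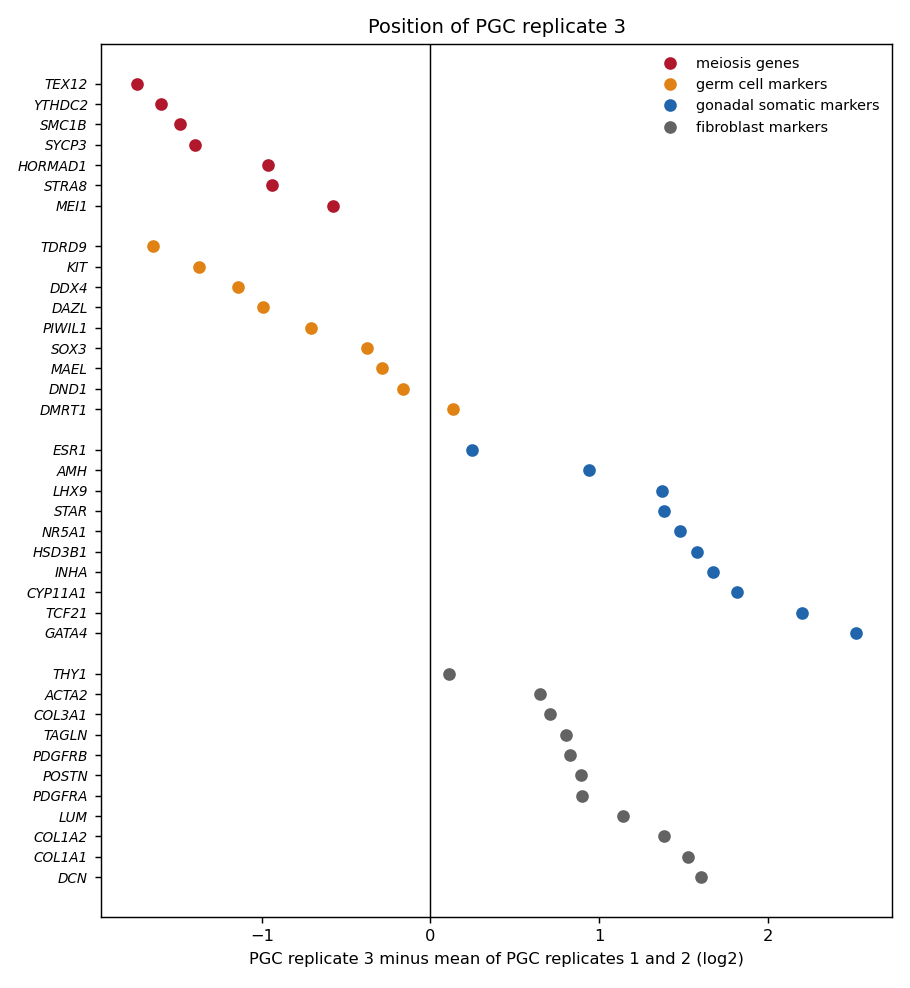
Log2 level in PGC replicate 3 minus the mean of PGC replicates 1 and 2 (horizontal axis), 1 point per gene, for the 7 meiosis genes and for markers of germ cells, gonadal somatic cells and fibroblasts. All 7 meiosis genes and 8 of 9 germ cell markers lie below 0, and all gonadal somatic and fibroblast markers lie above 0.

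DDX4 and DAZL transcripts were also above background in GSC and blastoderm, at 5.29, 5.12 and 5.16 (DDX4) and 6.88, 6.49 and 6.53 (DAZL) in GSC, and at 6.65, 6.23 and 5.93 (DDX4) and 5.98, 6.17 and 6.32 (DAZL) in blastoderm. In the same 6 arrays SYCP3, HORMAD1, TEX12, SMC1B and STRA8 were within background. DDX4 averaged 10.06 in PGC, 5.19 in GSC and 6.27 in blastoderm, and DAZL 10.81, 6.64 and 6.15. A drop of that size from the PGC means of these meiosis genes would end within background, so nothing is read from their absence there.

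Comparisons between GSC, CEF and blastoderm were tested with limma over all probe sets. The genes were chosen on PGC relative to these groups, which favours genes that are low in all 3. A lack of calls between these groups is therefore partly built into the choice, and nothing is read from it. The fit takes its spread from all 12 arrays, so the PGC arrays still enter the SE. For TEX12 between GSC and CEF the limma SE was 0.32, against 0.02 from the SDs of these groups alone. For SMC1B between blastoderm and GSC it was 0.35, against 0.08. None of the 7 representative probe sets was called between GSC and CEF, blastoderm and GSC, or blastoderm and CEF at an adjusted p below 0.05, and 0 of 7 had an unadjusted p below 0.05 in any of them. Of all probe sets, 33.8%, 37.1% and 38.8% were called in these comparisons in either direction. Differences ranged from -0.31 to 0.51 for GSC minus CEF, from -0.09 to 0.25 for blastoderm minus GSC and from -0.29 to 0.42 for blastoderm minus CEF. This test did not resolve the order of GSC, CEF and blastoderm for any of the 7 genes on these probe sets, and a wide PGC spread makes a call in it less likely. For 5 of the 7 genes all 3 group means lay within background.

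HORMAD1 had the largest of these differences, 0.51 for GSC minus CEF (SE 0.24, limma adjusted p = 0.125). Without PGC replicate 3, which enters only through the shared spread, the adjusted p was 0.0350. Its second probe set was called higher in GSC than in CEF by 0.91 (SE 0.31, limma adjusted p = 0.0334) and lower in blastoderm than in GSC by a log2 difference of -1.27 (SE 0.31, limma adjusted p = 0.00370), with all of these means within background. YTHDC2, which is above background in these groups, differed by 0.08 between GSC and CEF (SE 0.34, limma adjusted p = 0.885), by 0.06 between blastoderm and GSC (limma adjusted p = 0.922) and by 0.14 between blastoderm and CEF (limma adjusted p = 0.801). Its probe set with PGC levels of 4.31, 5.10 and 3.09 was called higher in GSC than in CEF by 1.27 (SE 0.40, limma adjusted p = 0.0215).

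The 7 genes are a minority of the meiotic machinery, and a list of 88 other meiosis genes, of which 59 were measured under their symbol, was set beside them. The list holds general DNA repair and division genes too, and it is what remained after the 7 genes were taken from it. It was chosen with earlier results of these data known, so its counts and calls are a description and not independent support. In PGC 33 of the 59 (55.9%) had a mean above background, against 49.9% of all probe sets. Each listed gene is represented by its brightest probe set, while shares of all probe sets also count dimmer duplicates and probe sets without a symbol. Here and below the counts and shares are therefore unlike units and are not read against each other closely. Within background in all 4 groups were 21 of the 59, against 40.8% of all probe sets, among them SYCP1 and SYCP2 of the synaptonemal complex, HORMAD2 of the axis, SPO11, which makes the DNA breaks, DMC1, the meiotic recombinase, and MEIOC. The other probe set of SYCP2 was called higher in PGC, by 0.48 against GSC, 0.66 against CEF and 0.66 against blastoderm. The brightest probe set, which stands for SYCP2, averaged only 1.91 in PGC. Calls on the other therefore compare levels near the array's floor, and no presence of SYCP2 is read from them. Of the 7 listed genes of axis and synapsis, 0 had a PGC mean above background, and nothing is read from a count over so few genes.

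Relative to GSC, 16 of the 59 genes were called higher in PGC and 1 lower, where 10.8% of all probe sets were called higher and 11.1% lower. The median difference was 0.23, against -0.05 over all probe sets. By role, 10 of 26 genes of breaks and recombination, 3 of 7 of meiotic entry and RNA control, 1 of 7 of axis and synapsis, 1 of 5 of meiotic cohesin and its protection, 1 of 6 of telomere attachment and 0 of 8 of the divisions were called higher. Of the 16 called higher, TEX14 (the 1 of axis and synapsis), ANKRD31, MEIOB and BOLL had PGC and GSC means within background. Their calls therefore compare levels near the array's floor. Without PGC replicate 3 the count was 22 higher and 3 lower, and with array weights 27 higher and 4 lower.

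CPEB1, an RNA-binding regulator of translation in oocytes, read 8.99, 8.33 and 8.0 in PGC, against 4.96, 4.77 and 4.64 in GSC. No array overlapped, and the difference of 3.65 (SE 0.28, limma adjusted p = 1.95e-07) was a 12.6-fold change, with all 3 CPEB1 probe sets called. The smallest difference among these probe sets was 1.02. RBM46, a germ cell RNA-binding protein that mice need to enter meiosis, read 5.86, 5.92 and 4.57 in PGC, against 2.75, 3.13 and 3.36 in GSC, a rise of 2.37 (SE 0.31, limma adjusted p = 4.43e-05). MEIKIN, which guides kinetochores in the first meiotic division, read 6.68, 6.28 and 5.92 in PGC, against 4.62, 3.71 and 4.22 in GSC, a rise of 2.11 (SE 0.25, limma adjusted p = 1.96e-05). The other probe set of each was also called, with smaller rises of 1.43 in RBM46 and 0.87 in MEIKIN.

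TERB1, which ties telomeres to the nuclear envelope in meiosis, read 6.85, 6.40 and 3.91 in PGC, against 2.90, 2.41 and 2.49 in GSC. PGC replicate 3 was far below the others, yet above GSC, and the difference was 3.12 (SE 0.54, limma adjusted p = 5.23e-04), with 2 of 3 TERB1 probe sets called and a smallest difference of 0.51. The difference of 3.12 ranged from 2.56 without PGC replicate 1 to 4.03 without PGC replicate 3. REC114, which acts in break formation in mice, read 5.62, 4.52 and 3.01 in PGC, against 2.20, 2.05 and 2.24 in GSC. Its difference was 2.22 (SE 0.40, limma adjusted p = 7.27e-04), or 1.60 without PGC replicate 1 and 2.91 without PGC replicate 3, and only PGC replicates 1 and 2 exceeded background. The GSC means of RBM46, TERB1 and REC114 lay within background, so the size of these differences depends on the array's floor. HSF2BP and SWI5, both of homologous recombination, were higher by 2.09 (limma adjusted p = 8.34e-05) and 2.10 (limma adjusted p = 2.88e-06). Over the 3 SWI5 probe sets the difference ran from 1.24 to 2.12.

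RAD21L1, a meiotic cohesin subunit, was called lower in PGC than in GSC by a log2 difference of -0.53 (SE 0.18, limma adjusted p = 0.0387) on 1 of 4 probe sets. That call was lost without PGC replicate 1, PGC replicate 2, GSC replicate 1, GSC replicate 2 or blastoderm replicates 2 or 3, with limma adjusted p-values of 0.0992, 0.180, 0.127, 0.0946, 0.0517 and 0.0519. It was also lost with quantile normalization (limma adjusted p = 0.0698) and median centring (0.0539). The same held with only the 2 groups compared (0.112) and on the mean over probe sets (0.0781). The PGC mean of RAD21L1, 3.28, lay within background. STAG3, another meiotic cohesin subunit, read 6.08, 5.95 and 5.79 in PGC, against 6.52, 6.52 and 6.08 in GSC, and the difference of -0.43 did not pass the test (SE 0.22, limma adjusted p = 0.195). It was called with array weights (-0.52, limma adjusted p = 0.0294) and on the mean over its probe sets (-0.46, limma adjusted p = 0.0221). HORMAD2 differed by 0.53 (SE 0.20, limma adjusted p = 0.0708), and passed without PGC replicate 3 (limma adjusted p = 0.0217). Of 8 measured relatives or partners of these proteins that mitotic cells use, 2 were called higher and 2 lower in PGC than in GSC (10.8% and 11.1% of all probe sets). Relative to CEF 2 were higher and 1 lower in PGC (19.6% and 19%), and relative to blastoderm 0 and 5 (18.2% and 19.1%). Nothing is read from counts over so few genes. Of the 8, SMC3, the cohesin ring subunit, differed by -0.07 between PGC and GSC (SE 0.27, limma adjusted p = 0.903), while its other probe set was called higher by 1.14. YTHDC1, a nuclear reader of methylated RNA, differed by -0.28 between PGC and GSC (SE 0.17, limma adjusted p = 0.299).

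Relative to CEF, 28 of the 59 genes were called higher in PGC and 0 lower, where 19.6% of all probe sets were called higher and 19% lower; without PGC replicate 3 the counts were 30 and 0, and without PGC replicate 1 or PGC replicate 2 they were 24 and 25 higher with 1 lower. The median difference was 0.43, against -0.07 over all probe sets. Of the 28 called higher, HORMAD2, TEX14, ANKRD31 and BOLL had PGC and CEF means within background. CPEB1 was higher by 4.65 (SE 0.28, limma adjusted p = 1.89e-09), TERB1 by 3.83 and HSF2BP by 2.87. MEIKIN was higher by 2.79 and REC114 by 2.56. Over all probe sets of a gene the smallest rise was 1.60 in CPEB1, 0.59 in TERB1 and 1.56 in MEIKIN. Without PGC replicate 3 the difference was 4.74 in TERB1 and 3.25 in REC114, and without PGC replicate 1 it was 1.94 in REC114. The CEF means of TERB1, MEIKIN and REC114 lay within background, so the size of their differences depends on the floor.

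Relative to blastoderm the list was split. In PGC 11 of the 59 genes were called higher and 20 lower, where 18.2% of all probe sets were called higher and 19.1% lower, and the median difference was -0.17, against -0.10 over all probe sets. Without PGC replicate 3 the counts were 15 and 18. CPEB1 (2.55), MEIKIN (2.50), REC114 (2.35), HSF2BP (1.95) and SWI5 (1.83) were the genes with the largest rises, and REC114 rose by 1.73 without PGC replicate 1 and by 3.03 without PGC replicate 3. Over all probe sets of a gene the smallest rise was 0.72 in CPEB1, 1.56 in MEIKIN and 1.16 in SWI5. CCNA1, a cyclin of germ cells and early embryos, read 3.02, 3.32 and 2.92 in PGC, against 9.12, 10.00 and 10.12 in blastoderm, a log2 difference of -6.66 (SE 0.28, limma adjusted p = 7.34e-11). BTG4 (-3.07), which helps to clear maternal mRNA in mice, SGO1 (-2.21), which protects cohesin, SFR1 (-2.07), the partner of SWI5, and RMI1 (-1.43), which acts with the BLM helicase, followed. The PGC means of CCNA1 and BTG4 and the blastoderm mean of REC114 lay within background, so the size of these differences depends on the floor. Of the 8 genes of the divisions, 7 were called lower in PGC. Of these 7, MOS and FBXO43 had PGC and blastoderm means within background. The same held for SYCP2L, MEIOC and MAJIN among the other genes called lower. TERB1 read 6.85, 6.40 and 3.91 in PGC, against 7.22, 5.98 and 6.06 in blastoderm, and was not called (difference -0.70, SE 0.54, limma adjusted p = 0.328). Without PGC replicate 3 that difference was 0.21.

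**Figure D4:**
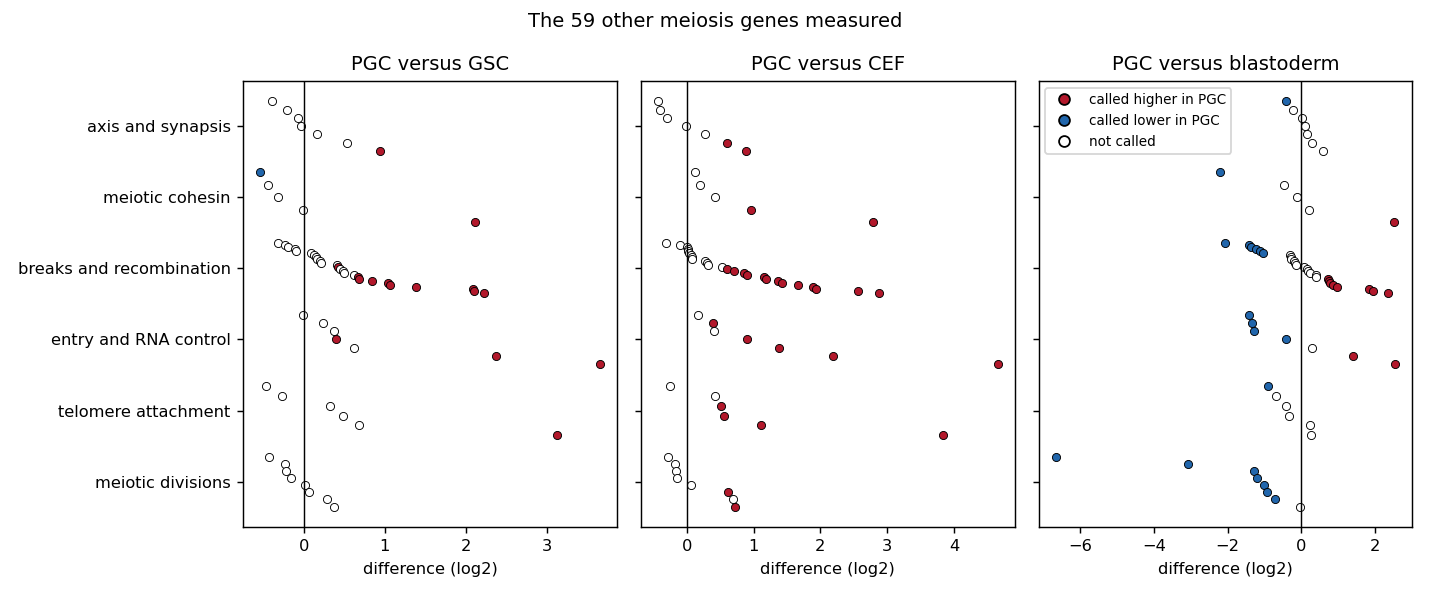
Log2 differences (horizontal axis) of the 59 other meiosis genes by role (vertical axis) for PGC minus GSC, PGC minus CEF and PGC minus blastoderm, 1 point per gene, filled where limma called the gene. Against GSC 16 genes are called higher and 1 lower, against CEF 28 and 0, and against blastoderm 11 and 20.

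In the comparisons without PGC the list was higher in GSC than in CEF for 20 genes and lower for 3, where 17.8% of all probe sets were called higher and 16% lower. That count of 20 fell to 13 without GSC replicate 3 and to 11 without CEF replicate 2. In blastoderm relative to GSC 26 were higher and 5 lower (18.6% and 18.5% of all probe sets), and relative to CEF 30 were higher and 1 lower (20.6% and 18.2% of all probe sets). Calls between means within background enter these counts too. Among them are SYCE3, SGO2 and HFM1 for GSC against CEF, SPO11 and DMC1 for blastoderm against GSC, and MEIOC and MAJIN for blastoderm against CEF. These comparisons share groups with those above, so their counts are not separate evidence.

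Genes of retinoic acid supply and response, the signal that induces STRA8 in mice, were set beside STRA8, with 13 of 16 measured. Relative to GSC, 3 were called higher and 5 lower in PGC; relative to CEF 10 were higher and 3 lower, and relative to blastoderm 8 and 2. Of all probe sets 10.8% were called higher and 11.1% lower against GSC, 19.6% and 19% against CEF, and 18.2% and 19.1% against blastoderm. The genes named next were chosen after their values were seen. ALDH1A2, a retinoic acid-making enzyme, averaged 9.35 ± 0.61 in PGC and 10.74 ± 0.02 in GSC (SD, n = 3 each), and was lower by a log2 difference of -1.39 (SE 0.27, limma adjusted p = 0.00160). ALDH1A1, a related enzyme, averaged 7.53 ± 0.75 in PGC and 5.65 ± 1.18 in GSC, and was higher by 1.88 (SE 0.44, limma adjusted p = 0.00553). CYP26A1, which degrades retinoic acid, averaged 7.43 ± 0.24 in PGC and 7.93 ± 0.94 in GSC, a difference of -0.50 that did not pass the test (SE 0.34, limma adjusted p = 0.351). Without GSC replicate 3 that difference was -1.03 and was called (limma adjusted p = 0.00653). PGC levels of these genes stand beside the gonadal somatic markers of the PGC samples given above, whose part in them was not tested.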

How the data were processed

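The authors deposited 1 table of 38535 probe sets and 12 arrays (Affymetrix GeneChip Chicken Genome Array). Per the values themselves, which span 1.02 to 13.18 with array medians of 3.50 to 3.65, the authors gave log2 levels already scaled between arrays. MAS5 is named per the submitters' processing notes, without a version or role; the sources used here do not state the steps behind these values. The number of arrays, 3 per group, limits the precision.

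Left out were 96 manufacturer control and 746 viral or reporter probe sets, whose 99th percentile (3.61) was taken as background; 37693 remained, 27166 with 1 symbol, 177 with several and 10350 with none. The probe set brightest on average over the 12 arrays stood for its gene, and those with the suffix _x_at did so only for lack of another. Shares of all probe sets count every probe set, so they differ in unit from counts over genes. Groups were tested in limma 3.58.1 under R 4.3.3 (lmFit, eBayes with an intensity trend, 12 arrays, 8 residual degrees of freedom, two-sided, Benjamini-Hochberg adjustment over the 37693 probe sets, called below 0.05). The fit was tested on simulated data made for PGC versus GSC over 37693 probe sets: of 50 probe sets changed at each size, 24 were recovered at a log2 change of 1, 47 at 2, 50 at 3 and 50 at 4. Of the unchanged probe sets 13 were called. The simulation gave all groups the same mean and spread and changed only probe sets with a mean above background. Its recovery therefore does not carry over to genes within background or with a wide PGC spread.

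The 7 genes and all lists were chosen with earlier results of these data known. List genes are named by a rule: the 5 called genes with the largest difference in each direction in each comparison with PGC, and SYCP1, SYCP2, REC8, STAG3, RAD21L1, SPO11, DMC1, MEIOC, RBM46, HORMAD2, SMC1A, SMC3 and YTHDC1. REC8 and SMC1A were not matched by symbol and are not analysed here. For likeness, the 3 genes nearest to each of the 7 are named. Alternatives were an offset of 16 before the logarithm, quantile normalization, a filter on low values, limma with array weights or no trend, median centring, only the compared groups, a replicate block, each array left out, other probe sets of a gene and their mean. No sequences or coordinates are given, since none were used here.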

Additional observations from a re-analysis of the deposited data

How the results depend on the processing

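Every count of list genes called higher in the 6 comparisons stayed within 1.5 times its value under the alternatives, apart from 27 with array weights for PGC against GSC (16 as reported) and, for GSC against CEF (20 as reported), 13 without GSC replicate 3 and 11 without CEF replicate 2. With each array left out in turn the counts ran from 12 to 22 for PGC against GSC, from 24 to 30 for PGC against CEF, from 10 to 15 for PGC against blastoderm, from 11 to 20 for GSC against CEF, from 23 to 26 for blastoderm against GSC and from 27 to 32 for blastoderm against CEF. With the replicate number as a block they were 17, 30, 12, 19, 25 and 29 in the same order. In none of the 6 comparisons did all 3 same-numbered pairs deviate together with a correlation over 0.1, so the numbers were not taken to pair the samples. These correlations ran from -0.14 to 0.18, and from 1 (blastoderm against GSC) to 4 (blastoderm against CEF) of 6 arrays correlated best with their own number. Of 339 recomputed PGC differences of the 7 genes, 335 stayed above 0, but the genes were chosen on these differences. Leaving out an array of a group not compared cannot change a difference. Leaving out 1 of 3 compared arrays cannot move it past the limit used, so nothing is read from these counts. The limit was the square root of the summed variances of both groups, and 21 differences passed it, 11 of them on another probe set and 10 with an offset of 16. That offset shrinks differences between low levels by construction, and lowered the PGC difference from GSC to 0.93 in SYCP3, 1.93 in HORMAD1 and 0.68 in STRA8, changing the fold by over 1.5 times for 6 of the 7 genes against GSC and for 5 against CEF and 5 against blastoderm. Of 996 recomputed differences of the list genes named, 19 lost a call and 16 gained one, and the cause was not tested. Levels within background limit TEX12 and SMC1B, whose folds have no firm size.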
